A study of Xenopus laevis with 6 samples.

Results

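The SOX transcription factors examined here are those of neural progenitors, neurons and glia: sox1, sox2, sox3, sox4, sox5, sox8, sox9, sox10, sox11 and sox21. A gene of the mRNA count table was taken when its symbol in the deposited annotation, without the .L or .S suffix, was one of these 10 names. This gave 19 gene copies of 45099 genes, and 16 of them had enough reads to be tested, of 19158 genes tested in all. Xenopus laevis is allotetraploid, and .L and .S mark the homeologous copies on its long and short subgenomes. Both copies were annotated for 9 of the 10 symbols, and sox2 had an S copy only.

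Total RNA came from stage 46 optic tectum, a midbrain structure that receives the axons of the retina. The 3 IN libraries were enriched for immature neurons and came from tadpoles exposed to visual stimulation. The 3 NPC libraries were enriched for neural progenitors and came from tadpoles kept in the dark. Cell population and visual condition therefore cannot be told apart, and the method of enrichment is not stated in the labels. Because no label ties a library to its own animals or pool, each p-value is set against a spread between libraries that may be technical. In bulk RNA, fewer cells of a type and less RNA per cell cannot be told apart either.

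SOX proteins bind and bend DNA through a shared HMG box and fall into subgroups by sequence. The SOXB1 factors SOX1, SOX2 and SOX3 keep cells in the neural progenitor state, and the SOXB2 factor SOX21 acts against them. The SOXC factors SOX4 and SOX11 act in differentiating neurons, where they activate neuronal genes. The SOXD factor SOX5 lacks an activation domain of its own and works beside other SOX proteins. The SOXE factors SOX8, SOX9 and SOX10 act in glia, oligodendrocytes and neural crest, and SOX9 also in cartilage.

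The libraries held 9388103, 9747548 and 9914191 counted reads in IN and 8422751, 9655246 and 8480161 in NPC. Replicates differed widely, with a biological coefficient of variation of 111% from the single dispersion fitted in common to all tested genes. Neuron markers without SOX genes summed to 4080 to 6446 CPM (read counts over library size, scaled between libraries by TMM) in IN and 4852 to 8813 CPM in NPC. Progenitor and radial glia markers without SOX genes summed to 1880 to 3359 CPM in IN and 1195 to 3157 CPM in NPC. Both ranges overlapped, so these markers did not separate the groups the way the labels name them. Their means leaned against the labels, by less than the SD of the NPC libraries. Neuron markers averaged 5509 ± 1258 CPM in IN and 7263 ± 2116 CPM in NPC, with 10 of 14 copies lower in IN by log2 fold change. Of 18 tested progenitor copies, which include the sox2 and sox3 copies examined below, 14 were higher in IN and 4 lower. With these SOX copies included, progenitor markers averaged 2806 ± 804 CPM in IN and 2507 ± 1040 CPM in NPC. The cause was not tested.

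No SOX copy passed the test between IN and NPC. In the quasi-likelihood test of edgeR (adjusted p by Benjamini-Hochberg), 0 of the 16 tested copies passed at 0.05, as did 0% of all genes, and DESeq2 and limma-voom also called 0 copies. An unadjusted p under 0.05 was reached by 0 of 16 copies, against 3.43% of all genes, and the smallest unadjusted p was 0.239. DESeq2 called 0.459% of all genes and gave no adjusted p for sox21.S and sox5.L. As log2 fold changes of IN over NPC, the differences were above 0 in 10 copies and below 0 in 6, while 49.0% were above 0 among all genes. The median was 0.08 over the SOX copies and -0.03 over all genes, and the copies ran from -1.53 for sox1.L to 1.86 for sox2.S. The CPM of IN and NPC libraries did not overlap in 0 of the 16 tested copies, against 8.76% of all genes (4.70% with IN higher and 4.06% with IN lower). Standard errors of the copies ran from 0.60 to 2.13 with a median of 1.03 on the log2 scale, and the 95% interval of each copy held a log2 change of 1 in at least 1 direction. A library held over 50% of the reads in 2 copies, against 25.2% of all genes, and 1 copy had a library with 0 reads, against 20.0%.

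**Figure D1:**
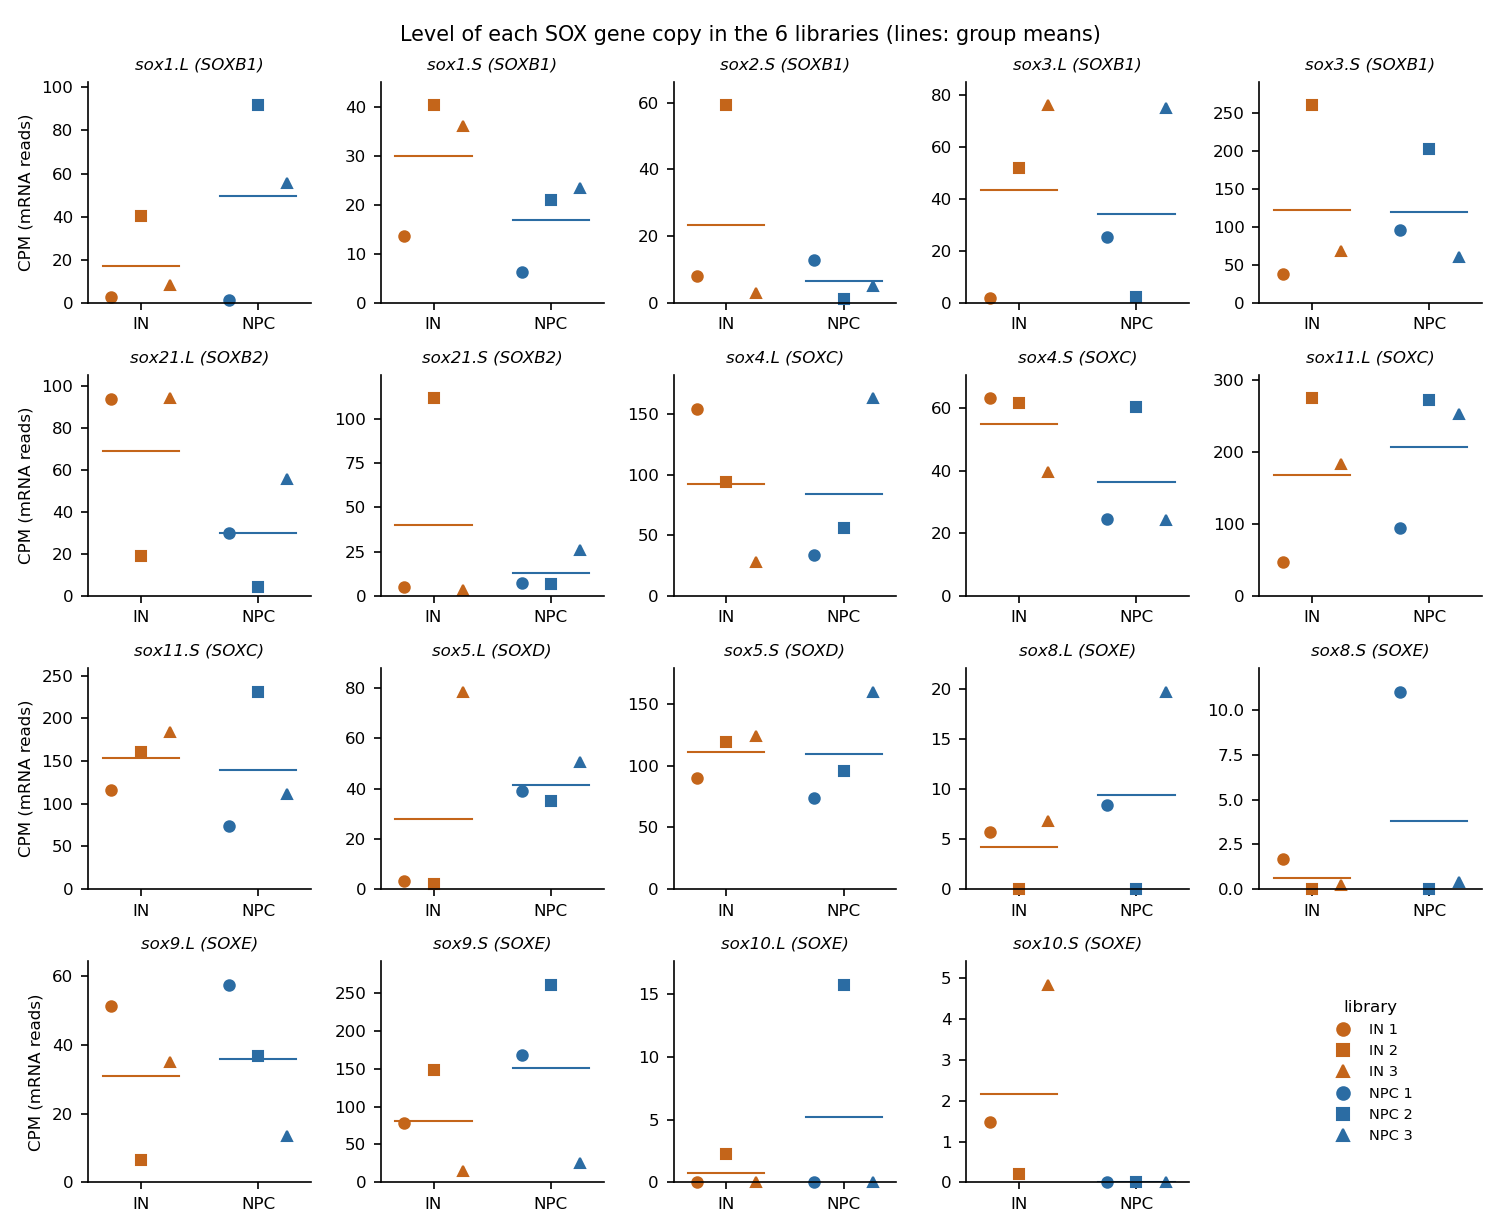
Level of each of the 19 SOX copies in CPM of mRNA reads, with the 3 IN libraries left and the 3 NPC libraries right, a marker shape for each replicate number and a line at each group mean. Of the 19 copies, only sox10.S, which was not tested, has IN libraries all above the NPC libraries, against 4.70% of all tested genes. Its NPC libraries are all at 0.

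The SOXB1 sum varied between libraries of a group far more than between group means. Summed over the 5 SOXB1 copies, the level was 63.8, 452 and 191 CPM in IN libraries 1, 2 and 3, against 141, 318 and 219 CPM in the NPC libraries. The highest and the lowest sum both lay in IN, and the means were 235 ± 198 CPM in IN and 226 ± 88.7 CPM in NPC (SD, n = 3 each). As a difference between group means of log2 values, the sum was instead lower in IN, at -0.28 for IN minus NPC and -0.45 on STAR coding counts. On mRNA counts that measure gives more weight to the low value of IN 1 than the mean CPM does.

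The copies of sox1, a factor of neural progenitors and the lens, differed in direction. sox1.L (build 9.1, 2L:115447376-115450252, minus strand) had 27, 397 and 81 reads in IN and 12, 734 and 438 reads in NPC. sox1.S (2S:98210692-98213995, minus strand) had 139, 398 and 351 reads in IN and 59, 168 and 186 reads in NPC. Library 1 was lowest for both copies in both groups, and the groups overlapped for both. Between groups the log2 fold change was -1.53 (SE 1.29, 95% interval -4.23 to 1.16) for sox1.L and 0.83 (SE 1.21) for sox1.S, with unadjusted p of 0.249 and 0.501 and adjusted p of 1 (edgeR, quasi-likelihood). The value of sox1.L ran from -3.17 without IN replicate 2 to -0.72 without NPC replicate 2, and it was -0.58 on STAR coding counts. The exact permutation p was 0.4 for sox1.L and 0.3 for sox1.S, where 0.1 is the smallest that 3 against 3 libraries can give. With both copies summed, sox1 was at 47.0 ± 31.9 CPM in IN and 65.4 ± 52.5 CPM in NPC, a log2 fold change of -0.48 (SE 0.93).

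The sox2 gene, which holds progenitors in their undifferentiated state, was represented by a short model. sox2.S (Scaffold33547:13-594, minus strand) spans 582 bases on a small scaffold, all of them coding and none annotated as UTR, so its reads may be only part of those of sox2. It had 80, 584 and 29 reads in IN and 122, 10 and 40 reads in NPC. IN library 2 held 67.5% of its reads, and the other libraries of the 2 groups overlapped. Its level was 23.4 ± 31.2 CPM in IN and 6.41 ± 5.95 CPM in NPC, with a log2 fold change of 1.86 (SE 1.60, 95% interval -1.47 to 5.19) and an exact permutation p of 0.6. Without IN replicate 2 the log2 fold change was -0.22, so its direction rested on that library. The current RefSeq annotation (Xenopus_laevis_v10.1) lists sox2.L with sox2.S as a synonym, so the copy letter of this model may differ between annotations.

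sox3, an early SOXB1 factor of the neural plate and later of progenitors, had the highest SOXB1 level per length, on its S copy. sox3.S (8S:61037566-61039219, minus strand) had 381, 2562 and 654 reads in IN and 897, 1615 and 472 reads in NPC. Library 2 was highest in both groups and the ranges overlapped. Its log2 fold change was 0.03 (SE 0.73, 95% interval -1.49 to 1.56), so the interval held a log2 change of 1 in either direction. In coding sequence sox3.S had 100, 1066 and 552 reads in IN and 347, 1556 and 420 reads in NPC, and its log2 fold change turned to -0.71. sox3.L (8L:33862117-33863802, minus strand) had 19, 511 and 740 reads in IN and 241, 17 and 594 reads in NPC, with a log2 fold change of 0.34 (SE 1.22). The lowest library of sox3.L differed between the groups, IN 1 and NPC 2. With both copies summed, sox3 was at 164 ± 136 CPM in IN and 152 ± 41.7 CPM in NPC.

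Of the 10 SOX symbols with copies summed, the groups did not overlap in 1, the SOXB2 factor sox21, against 8.73% over all genes. With the L and S copies summed, sox21 was at 99.9, 129.8 and 96.3 CPM in IN, against 37.5, 10.5 and 80.5 CPM in NPC. Each IN library lay above each NPC library, and the nearest pair was IN 3 and NPC 3. After summing copies, 8.73% of 13569 symbols and unnamed genes did not overlap, 4.81% with IN higher. An unadjusted p under 0.05 was reached by 0 of the 10 SOX symbols in this fit, against 3.49%. The means were 109 ± 18.4 CPM in IN and 42.8 ± 35.3 CPM in NPC (SD, n = 3 each). The log2 fold change was 1.34 (SE 0.78, 95% interval -0.29 to 2.97), with an unadjusted p of 0.101 and an adjusted p of 1 (edgeR, quasi-likelihood). The exact permutation p was 0.1, the smallest possible. That p follows from the groups not overlapping, for which sox21 was singled out, and adds no support.

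The reads of sox21 were split between its copies in different proportions from library to library. sox21.L (2L:121941433-121944370, plus strand) had 949, 189 and 912 reads in IN and 284, 33 and 438 reads in NPC. sox21.S (2S:104306269-104307057, plus strand), a model of coding sequence only, had 52, 1098 and 31 reads in IN and 67, 53 and 203 reads in NPC. IN library 2 was the lowest IN library for sox21.L and held 73.0% of all sox21.S reads. Log2 fold changes were 1.21 (SE 0.99) for sox21.L and 1.60 (SE 1.36) for sox21.S. That of sox21.L ran from 0.70 without NPC replicate 2 to 2.02 without NPC replicate 3. Without IN replicate 2 that of sox21.S was -1.66, while the summed sox21 was at 1.20, a setting chosen after seeing the data.

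Few sox21.L reads fell in its coding sequence, NPC library 2 aside. Coding sequence makes up 27.7% of the sox21.L transcript and held 14.2%, 9.52% and 10.96% of its reads in IN, against 0%, 84.8% and 0% in NPC. The coding reads of sox21.L were 135, 18 and 100 in IN and 0, 28 and 0 in NPC. With coding reads of both copies summed, sox21 was at 43.1, 209 and 21.2 CPM in IN and 16.8, 18.1 and 40.6 CPM in NPC, so the groups then overlapped through IN 3 and NPC 3. The log2 fold change on those counts was 1.86 for the sum, and for sox21.L alone it was 2.995 on STAR and 3.21 on TopHat2 coding counts, without passing edgeR's test.

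A neighbouring gene named sox21-like.S (2S:104298595-104305991, minus strand) lies 278 bases from sox21.S on the opposite strand and was named after its values were seen. It had 17, 884 and 6 reads in IN and 24, 38 and 259 reads in NPC. IN 2 was highest and NPC 3 next, the same order of those libraries as for sox21.S. The models do not overlap. No source used here gives the strand setting of the counting, so a read counted on either model may come from a transcript of the other strand.

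SOXC transcripts, of the factors that act in differentiating neurons, were near equal in mean between the groups. Summed over the 4 SOXC copies, the level was 380, 590 and 435 CPM in IN, against 227, 619 and 550 CPM in NPC. The lowest and the highest library were both NPC, and the means were 469 ± 109 CPM in IN and 465 ± 210 CPM in NPC (SD, n = 3 each).

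sox11, which is switched on as progenitors leave the cell cycle, had at least 471 reads on each copy in every library. sox11.L (5L:135794854-135797599, plus strand) had 471, 2699 and 1780 reads in IN and 889, 2176 and 1992 reads in NPC. sox11.S (5S:116889088-116893765, plus strand) had 1176, 1584 and 1789 reads in IN and 699, 1849 and 882 reads in NPC. Library 1 was lowest for both copies in both groups, and the groups overlapped. Fitted log2 fold changes were -0.30 (SE 0.64, 95% interval -1.63 to 1.04) for sox11.L and 0.15 (SE 0.60, 95% interval -1.10 to 1.40) for sox11.S. On coding reads that of sox11.L was 0.08. With copies summed it was -0.09 (SE 0.51, 95% interval -1.14 to 0.96), with means of 320 ± 139 CPM in IN and 341 ± 162 CPM in NPC.

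sox4, the other SOXC gene, had 1562, 928 and 274 reads on its L copy (6L:93818676-93822524, plus strand) in IN and 319, 445 and 1286 reads in NPC. The libraries with the most sox4.L reads were IN 1 and NPC 3, and the ranges overlapped. sox4.S (6S:73514578-73518378, plus strand) had 639, 609 and 385 reads in IN and 233, 482 and 191 reads in NPC. Fitted log2 fold changes were 0.13 (SE 0.79) for sox4.L and 0.59 (SE 0.89) for sox4.S, with exact permutation p of 1 and 0.2. Coding sequence held 51.5%, 36.9% and 27.3% of sox4.S reads in IN, against 1.72%, 18.9% and 1.05% in NPC. The coding reads themselves were 329, 225 and 105 in IN and 4, 91 and 2 in NPC, and the log2 fold change of sox4.S was 2.63 on STAR and 2.82 on TopHat2 coding counts. Scaled per length these were 66.8, 38.1 and 15.3 CPM of coding reads per kilobase of coding sequence in IN and 0.900, 18.1 and 0.347 in NPC, so the groups overlapped between IN 3 and NPC 2. On coding counts the groups did not overlap in 0 of 19 SOX copies, against 9.63% of 15422 genes, and 0 copies passed edgeR's test.

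**Figure D2:**
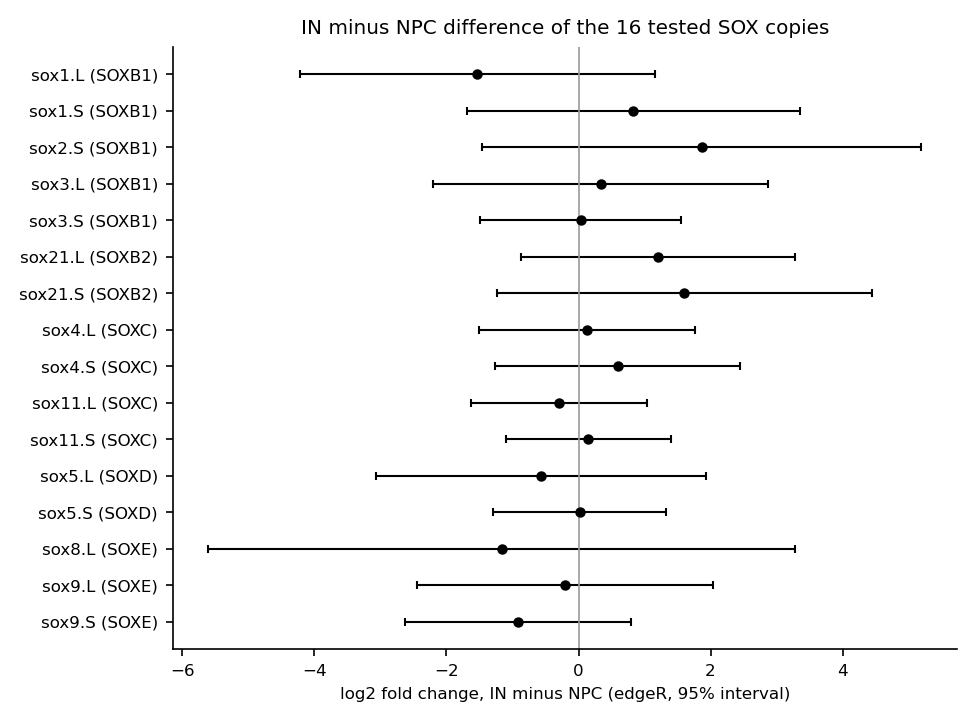
Log2 fold change, IN minus NPC, of the 16 tested SOX copies, as points with 95% intervals from edgeR, grouped by subgroup. All 16 intervals include 0, and the point estimates run from -1.53 to 1.86.

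The SOXD gene sox5 was read mainly from its S copy, whose level varied least of all 19 copies, with a coefficient of variation of 27.7% over the 6 libraries. sox5.S (3S:801289-895997, minus strand) had 911, 1177 and 1202 reads in IN and 696, 767 and 1264 reads in NPC. Its level was 111 ± 18.4 CPM in IN and 109.8 ± 44.8 CPM in NPC, with a log2 fold change of 0.02 (SE 0.63, 95% interval -1.29 to 1.32). sox5.L (3L:1162696-1264175, minus strand) had 33, 21 and 763 reads in IN and 369, 280 and 400 reads in NPC. IN library 3 was above every NPC library and the other IN libraries were below them, and the log2 fold change was -0.57 (SE 1.20). It was -3.93 without IN replicate 3, -0.042 without IN replicate 1 and -0.029 without IN replicate 2, so its size turned on which IN library was left out. It was -2.33 by limma-voom and -0.91 on STAR coding counts. With copies summed, sox5 was at 139 ± 55.4 CPM in IN and 150 ± 51.4 CPM in NPC.

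SOXE transcripts had a lower mean in IN, within the spread of the NPC libraries. Summed over 6 copies, the level was 139, 157 and 61.4 CPM in IN, against 245, 313 and 58.7 CPM in NPC. Library 3 was lowest in both groups, and the NPC value there was below each IN value. The means were 119 ± 50.7 CPM in IN and 206 ± 132 CPM in NPC, a ratio of 0.579, with a difference smaller than the SD of the NPC libraries.

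sox9, a factor of radial glia, astrocytes and cartilage, supplied most of the SOXE reads. sox9.S (9_10S:19088238-19093653, plus strand) had 799, 1455 and 140 reads in IN and 1591, 2082 and 199 reads in NPC. Library 3 was lowest and library 2 highest in both groups, and within each number IN was below NPC, though the labels state no pairing. The level was 80.3 ± 66.6 CPM in IN and 151 ± 118 CPM in NPC, with a log2 fold change of -0.91 (SE 0.82, 95% interval -2.63 to 0.80) and an exact permutation p of 0.4. Leaving out IN replicate 2 gave -1.69 and leaving out NPC replicate 2 gave -0.26. sox9.L (Scaffold30:1787977-1794161, plus strand) had 519, 65 and 341 reads in IN and 543, 294 and 106 reads in NPC, with a log2 fold change of -0.21 (SE 1.08). Its order of libraries differed from that of sox9.S. With copies summed, sox9 was at 132, 153 and 49.1 CPM in IN and 228, 290 and 38.3 CPM in NPC, so IN 3 was then above NPC 3. In NPC library 2, 0.340% of sox9.L reads were in coding sequence. Cartilage markers without sox9 summed to 20.1 to 33.0 CPM in IN and 21.5 to 63.0 CPM in NPC, with acan.L and matn1.L at 0, and their part in sox9 was not tested.

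sox8, a SOXE gene of glia and neural crest, was read in some libraries only. sox8.L (9_10L:109934401-109944189, minus strand) had 58, 0 and 66 reads in IN and 79, 0 and 156 reads in NPC. sox8.S (9_10S:98116302-98127065, minus strand) had 17, 0 and 2 reads in IN and 104, 0 and 3 reads in NPC and was below the filter on reads. Neither copy had a read in library 2 of either group. Counting error alone allows up to 3 reads at a count of 0, which is 0.304 CPM in IN 2 and 0.375 CPM in NPC 2. sox8.L had a log2 fold change of -1.16 (SE 2.13, 95% interval -5.61 to 3.28).

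sox10, the SOXE gene of oligodendrocytes, Schwann cells and neural crest, was below the filter in both copies. sox10.L (4L:114982869-114991299, minus strand) had 0, 22 and 0 reads in IN and 0, 126 and 0 reads in NPC. Its reads lay in library 2 alone, where sox8 had none. sox10.S (4S:95098042-95109018, minus strand) had 15, 2 and 47 reads in IN and 0, 0 and 0 reads in NPC. Over the group, 64 reads in IN against none in NPC came to an 18.2-fold higher level in IN, with a floor of 3 reads over the NPC group. IN library 2, with 2 reads, lies within that counting floor, and IN library 3 held 73.4% of the reads. The fold is not a bound, since it leaves out the spread between libraries. In coding sequence sox10.S had 15, 1 and 0 reads in IN and 0, 0 and 0 reads in NPC, so the groups then overlapped. This copy was not tested. On mRNA counts it was the only copy of 19 whose groups did not overlap. Among tested genes, which do not include it, 8.76% did not overlap, 4.70% with IN higher.

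Neural crest and melanocyte markers summed to 21.6 to 64.9 CPM in IN and 12.4 to 468 CPM in NPC, with dct.S, foxd3.L, snai2.S and tyrp1.S at 0. NPC library 2 had the highest value, and it was also the library with the most sox10.L reads. All of that value came from tfap2a.L, tfap2a.S and snai2.L. The other copies of the list that were read had their reads in other libraries only, so the list as a whole did not peak in NPC 2. The marker tfap2a.L had 34, 235 and 107 reads in IN and 42, 3146 and 289 reads in NPC, and snai2.L had 0, 0 and 0 reads in IN and 0, 239 and 0 reads in NPC. The other copy, tfap2a.S, had 84, 372 and 113 reads in IN and 0, 356 and 0 reads in NPC, with a log2 fold change of 0.37 (SE 1.84). Oligodendrocyte markers without sox10 summed to 102 to 158 CPM in IN and 143 to 185 CPM in NPC, and Schwann cell markers to 15.8 to 27.5 CPM in IN and 29.4 to 40.4 CPM in NPC. The part of these cells in the sox10 counts was not tested.

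Levels of different genes were compared per length, as CPM of coding reads per kilobase of coding sequence (coding CPM per kilobase). The mRNA counts were not used for this, because in genes with several exons they exceeded the coding counts even where no UTR is annotated. Among genes with no annotated UTR and at least 100 reads, mRNA and coding counts were equal in 97.2% of 321 genes with 1 coding segment and in 7.43% of 2369 genes with 2 or more. sox5.S is such a gene, with no UTR, 14 coding segments and coding counts at 58.8% to 99.0% of its mRNA counts.

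The highest level per length over the 6 libraries was that of sox11.L, at 179 ± 97.0 coding CPM per kilobase (SD, n = 6, both groups together). It was followed by sox3.S at 151 ± 128, sox9.S at 148 ± 119, sox11.S at 111 ± 25.9, sox4.L at 86.2 ± 68.4 and sox5.S at 78.0 ± 13.2. The middle of the order held sox3.L at 68.6 ± 54.9, sox21.S at 62.8 ± 101, sox2.S at 50.6 ± 72.1, sox9.L at 31.0 ± 32.2, sox4.S at 23.3 ± 25.4 and sox1.S at 21.2 ± 12.4. sox5.L at 16.3 ± 16.5, sox1.L at 15.2 ± 13.4 and sox21.L at 11.8 ± 14.98 came next, and the copies of sox8 and sox10 were lowest, at 0.461 to 3.38. By group, sox11.L was highest in IN, at a mean of 184, while in NPC it averaged 174, below sox9.S at 197 and sox3.S at 187. Each copy differed from the next in the order over both groups by less than 1 SD, and their ranges over libraries overlapped.

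**Figure D3:**
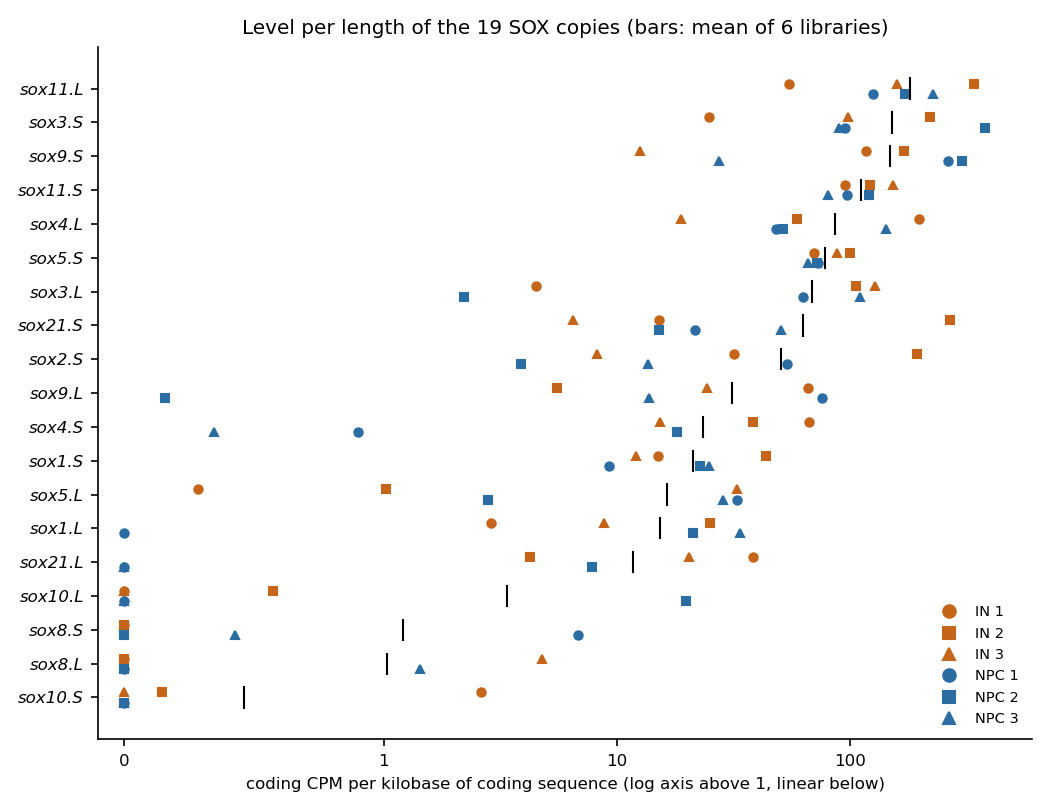
Coding CPM per kilobase of coding sequence for the 19 SOX copies, ordered by the mean of 6 libraries (black bar), with a point for each IN and NPC library on an axis that is linear below 1 and logarithmic above. sox11.L is highest at a mean of 179, and sox10.S is lowest at 0.461.

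The share of mRNA reads on the L copy ranged widely between libraries of a group. For sox21 it was 94.8%, 14.7% and 96.7% in IN and 80.9%, 38.4% and 68.3% in NPC. Library 2 was thus lowest in both groups on mRNA counts. On coding counts sox21.L had 0, 28 and 0 reads in NPC, so NPC 2 then held the highest NPC share. For sox3 the L share on mRNA counts was 4.75%, 16.6% and 53.1% in IN and 21.2%, 1.04% and 55.7% in NPC. Library 3 was highest in both groups. For sox1 it was 16.3%, 49.9% and 18.8% in IN and 16.9%, 81.4% and 70.2% in NPC.

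Library 2 again stood lowest for sox9, whose L share was 39.4%, 4.28% and 70.9% in IN and 25.4%, 12.4% and 34.8% in NPC. The S copy of sox5 was the higher copy in all 6 libraries, with an L share of 3.50%, 1.75% and 38.8% in IN and 34.6%, 26.7% and 24.0% in NPC. The L share of sox11 was 28.6%, 63.0% and 49.9% in IN and 56.0%, 54.1% and 69.3% in NPC, and that of sox4 ran from 41.6% to 71.0% in IN and from 48.0% to 87.1% in NPC. An exact permutation test over the 8 symbols gave p of 0.3 to 1 (adjusted p 1 for each). It cannot decide whether the shares differed, since 0.1 is the smallest p that 3 against 3 libraries can give. For sox8 the smallest possible p was higher, since only 2 libraries of each group had reads. On coding counts the IN minus NPC difference in L share was larger for sox4, at -26.7 percentage points on both tables against -6.65 on mRNA counts (exact permutation p 0.2 with STAR and 0.1, the smallest possible, with TopHat2). It was also larger for sox21, at 38.5 points with STAR against 6.20 on mRNA counts (exact permutation p 0.2), and smaller for sox1, at -3.66 points with STAR against -27.8. Reads that match both copies may have been dropped or given to either copy, so the shares are uncertain to that extent. The shares also compare reads and not levels per length, while the models of a pair differ in length and UTR. The sox21.L model spans 2938 bases, 2125 of them UTR, and sox21.S spans 789 bases without UTR. Models of sox11 span 2746 bases for L and 4678 bases for S. The log2 fold changes of the copies had opposite signs in 3 of 7 symbols with both copies tested, sox1, sox5 and sox11. No share over all genes is at hand to set beside this count. None of these copies had an unadjusted p under 0.05 (edgeR, quasi-likelihood), so the signs do not show that copies diverged. The value of sox5.S was 0.02, and on STAR coding counts sox11.L turned to 0.08, the sign of sox11.S.

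**Figure D4:**
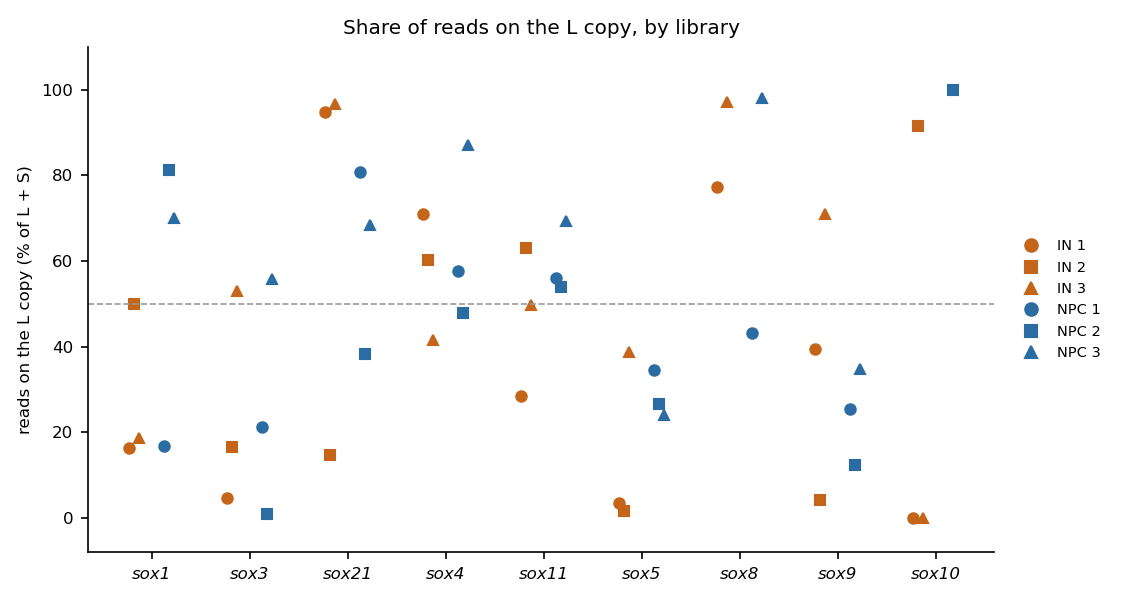
Percent of L and S mRNA reads on the L copy for the 9 symbols with both copies, by library, with IN libraries left of NPC libraries, a dashed line at 50% and no point where a symbol had no reads. sox5 lies below 50% in all 6 libraries, and sox21 ranges from 14.7% to 96.7%.

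Other SOX genes, and genes known as partners or targets of the subgroups, gave no calls either. Of 16 other annotated SOX copies, 6 were tested and 0 passed edgeR's test, with 1 at an unadjusted p under 0.05 (3.43% of all genes), and their median log2 fold change was -0.96. Both copies of sox7, sox17a and sox17b.1, with sox12.L and sox18.S, made up the 8 copies with 0 reads in every library. The SOXD gene sox6, a partner of SOX5 in other vertebrates, had 358, 181 and 140 reads on sox6.L in IN and 559, 663 and 1129 reads in NPC. All IN libraries were below all NPC libraries, at 35.4, 18.4 and 14.4 CPM in IN and 59.2, 82.9 and 143 CPM in NPC, with a log2 fold change of -2.06 (SE 0.85) and an unadjusted p of 0.0240 (adjusted p 1, edgeR's quasi-likelihood test). sox6.S was at 28.4 ± 23.6 CPM in IN and 60.2 ± 23.8 CPM in NPC. sox14, a SOXB2 gene like sox21, was at 25.4 ± 20.9 CPM in IN and 45.6 ± 25.9 CPM in NPC on its L copy, while its S copy, named after its values were seen, had 254, 391 and 443 reads in IN and 65, 141 and 34 reads in NPC. The groups did not overlap for sox6.L and sox14.S, 2 of the 6 tested copies, against 8.76% of all genes.

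Among SOXB1 partners and targets, 25 copies were tested and 0 passed, with 18 log2 fold changes above 0 and 7 below and a median of 0.38. The most abundant were gli3.L, a transcription factor of Hedgehog signalling, at 374 ± 408 CPM in IN and 226 ± 65.4 CPM in NPC, and the progenitor intermediate filament nestin. nes.L was at 304 ± 327 CPM in IN and 252 ± 270 CPM in NPC, and nes.S at 200 ± 135 CPM in IN and 154 ± 156 CPM in NPC. The IN libraries were above all NPC libraries for 2 of the 25 copies, against 4.70% of all genes, both named after their values were seen: gli3.S, with 725, 487 and 1236 reads in IN and 180, 324 and 383 reads in NPC, and pou3f1.S, with 1306, 771 and 542 reads in IN and 341, 323 and 286 reads in NPC.

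Among SOXC targets in neurons, 24 of 26 copies were tested and 0 passed, with 14 log2 fold changes above 0 and 10 below and a median of 0.09. The tubulin gene tubb2b.S was at 954 ± 307 CPM in IN and 1205 ± 678 CPM in NPC, the microtubule-associated map2.S at 767 ± 223 CPM in IN and 936 ± 276 CPM in NPC, and the adhesion gene ncam1.L at 815 ± 287 CPM in IN and 648 ± 36.9 CPM in NPC. The groups did not overlap in 2 of the 24 copies, against 8.76% of all genes. The first was elavl4.S, lower in IN with 1642, 1535 and 1087 reads in IN and 2527, 4106 and 1594 reads in NPC. The other was neurod1.L, a proneural factor, higher in IN with 283, 199 and 158 reads in IN and 2, 111 and 0 reads in NPC. Both were named after their values were seen, and elavl4.S alone in this list had an unadjusted p under 0.05, against 3.43% of all genes, at 0.0399 (adjusted p 1, edgeR's quasi-likelihood test).

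Among SOXE partners and targets in glia, 17 of 21 copies were tested and 0 passed, with 11 log2 fold changes above 0 and 6 below and a median of 0.12. slc1a3.L, which takes glutamate up into glia, was at 351 ± 5.55 CPM in IN and 416 ± 189 CPM in NPC, fabp7.L, a lipid carrier of radial glia, at 371 ± 105 CPM in IN and 342 ± 169 CPM in NPC, and slc1a3.S at 254 ± 130 CPM in IN and 177 ± 52.5 CPM in NPC. The only copy of 17 with an unadjusted p under 0.05, against 3.43% of all genes, named after its values were seen, was nfix.L, with 295, 440 and 14 reads in IN and 4, 18 and 1 reads in NPC, which overlapped between IN 3 and NPC 2.

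Genes whose levels were nearest to those of sox2 or sox11 over the 6 libraries were found by the root-mean-square difference of log2(CPM + 1), centred on its mean. Only symbols with a mean of at least 50 CPM were compared. The closest to sox2 among 3927 symbols were zc3h14 and syngr1, both at 0.646, and otx1, at 0.689. Like sox2, all 3 were highest in IN 2. The closest to sox11 among 3926 symbols were rplp0 at 0.110, tuba1b at 0.114 and hspa5 at 0.123. Like sox11, these were lowest in library 1 of each group and highest in NPC 2. For both genes such a shared order follows in part from the choice, which used the same 6 libraries.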

How the data were processed

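Per the labels of the deposited sheets, the values are raw read counts per gene, whole numbers without normalization, in 3 versions: STAR over mRNA (used for the main results), STAR over coding sequence and TopHat2 over coding sequence. The submitters' processing notes also name FastQC, Trimmomatic, HTSeq and DESeq2. Strand, counting mode and handling of multiply matching reads are not stated. Symbols and positions (1-based, build 9.1) come from the deposited annotation. Columns beginning with D were read as dark-exposed (NPC) and those with L as light-exposed (IN), numbered as in the titles.

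Counts were filtered (filterByExpr), scaled by TMM and tested over all genes with edgeR 4.0.16 in R 4.3.3 (quasi-likelihood, robust, 2-sided), adjusted by Benjamini-Hochberg at 0.05. CPM used the TMM-scaled totals. Exact permutation tests were 2-sided. DESeq2 1.42.0 and limma-voom (limma 3.58.1) were alternatives, beside other scalings, filters, tables, a replicate block, summed copies and each library left out. The code was tested on simulated counts. The SOX members and gene lists were chosen with earlier results of these data known. All SOX copies were named, then the 3 most abundant copies of each list (other SOX genes, SOXB1 partners, SOXC targets, SOXE partners), any copy past the threshold, and the 3 symbols most like sox2 and sox11. Floors at 0 reads cover counting error only, since no molecular identifiers were counted.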

Additional observations from a re-analysis of the deposited data

How the results depend on the processing

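The count of SOX copies past the threshold was 0 under all 16 alternatives, and the smallest adjusted p of a copy over them was 0.784 (edgeR, DESeq2 or limma-voom, by alternative). Over all genes 0 passed, against 16 without a filter on reads, 88 by DESeq2 and 0 to 2 when each library was left out; the cause was not tested. The direction of several copies turned. For sox3.S the log2 fold change was -0.27 by limma-voom, -0.71 on STAR and -0.76 on TopHat2 coding counts and -0.25 with the replicate block, and for sox21.S it was -0.078 with the block. On STAR and TopHat2 coding counts it was 0.078 and 0.092 for sox11.L and 0.10 and 0.024 for sox9.L. With copies summed it was -0.48 for sox1, -0.089 for sox11 and -0.12 for sox5, opposite in sign to the S copy alone. The L share of sox3 differed by 2.94 and 3.97 percentage points on the coding tables. On the log2 scale the SOXD sum, IN minus NPC, was -0.15 on mRNA counts and 0.051 on STAR coding counts.

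Leaving out each library in turn gave log2 fold changes of -0.22 to 2.88 for sox2.S, -0.35 to 1.65 for sox3.L, -1.18 to 0.66 for sox3.S, -1.66 to 2.54 for sox21.S, -0.46 to 1.05 for sox4.L, -0.85 to 0.15 for sox11.L, -0.18 to 0.73 for sox11.S, -0.22 to 0.39 for sox5.S, -1.74 to 0.0041 for sox8.L and -0.78 to 0.29 for sox9.L. Without a change of sign it ran from 0.42 to 1.18 for sox1.S and 0.36 to 1.17 for sox4.S, beside the ranges of sox1.L, sox5.L, sox9.S and sox21.L given above. With the replicate block it was -2.54 for sox5.L and -1.02 for sox1.L. With each library left out, the difference in L share ran from -15.3 to 13.7 points for sox3, -7.79 to 33.2 for sox21, -14.8 to 4.74 for sox4, -10.9 to 44.0 for sox8 and -2.36 to 30.9 for sox9. The ends of the sox8 range rest on NPC 3 alone and NPC 1 alone, since NPC 2 had no sox8 reads. The summed sox21, added after seeing the data, kept its sign, at 0.89 to 2.19 without each library and 1.72 with the replicate block. Same-numbered IN and NPC libraries had deviations correlated at 0.115, 0.0467 and 0.0813, against -0.0744 to -0.00773 across numbers. Each library thus correlated best with its own number. Deviations from a group mean cancel out within the group, so the negative values across numbers are not independent of the positive ones at the same number. Coding counts also went by number. They were 45.9%, 54.0% and 60.9% of mRNA counts in IN 1, 2 and 3, and 45.1%, 55.1% and 61.0% in NPC. These are hints from the data and not the design. The labels state no pairing, so the main test used no block, and what same-numbered libraries share was not tested. With the replicate block 0 genes and 0 SOX copies passed.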
